A study of Mus musculus with 2 samples.

Results

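Fragments of small nucleolar RNAs (snoRNAs), listed in a mouse piRNA collection and lying in the noncoding host genes Snhg1 and Gas5, were followed in small RNA libraries of GC-1 cells, an immortalised line of mouse spermatogonia. The entries are mmu_piR_025007 and mmu_piR_012107, within snoRNAs of Snhg1, and mmu_piR_034793, within a snoRNA of Gas5. They were chosen by their read counts, which place them among the abundant piRNAs, and by the genes they match, as 3 of the 90 piRNAs with reads among 39986 annotated ones. Their abundance is therefore a description. The study compared 1 library of cells kept for 24 h at 0 nM MC-LR (control) with 1 library of cells kept for 24 h at 500 nM MC-LR. MC-LR is microcystin-LR, a cyanobacterial peptide toxin that inhibits serine/threonine protein phosphatases. Both groups were grown in the same medium with serum. The design asks how the toxin alters the piRNA profile.

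A snoRNA of the box C/D family is cut from an intron of its host gene and guides the methylation of riboses in ribosomal RNA. Its sequence carries a box C near the 5′ end, a box D near the 3′ end, and a second, often less well kept pair in the middle, called C′ and D′. Snhg1 and Gas5 are hosts of such snoRNAs, and both are noncoding genes. A piRNA in the strict sense is a germline small RNA bound by a PIWI protein, often with U as its first base. Binding to a PIWI protein was not measured here, so the members are called fragments below.

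All 3 fragments were the 3′ part of a snoRNA. They are shown in capitals within the whole snoRNA, because each runs from past the middle through the letters of the 3′ box.
Gm25855 (mmu_piR_025007): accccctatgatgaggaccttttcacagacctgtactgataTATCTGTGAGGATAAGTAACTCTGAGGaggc
Gm24452 (mmu_piR_012107): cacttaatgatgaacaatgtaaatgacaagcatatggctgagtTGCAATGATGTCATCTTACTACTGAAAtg
Gm25789 (mmu_piR_034793): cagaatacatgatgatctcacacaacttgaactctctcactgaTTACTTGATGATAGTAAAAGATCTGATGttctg
The first 2 snoRNAs are annotated with 72 nt and the last with 76 nt. mmu_piR_025007 covers positions 42 to 68, mmu_piR_012107 positions 44 to 70 and mmu_piR_034793 positions 44 to 71, counted from the 5′ end of the snoRNA. The annotated snoRNA goes on for 4, 2 and 5 nt after them. Each fragment matched its snoRNA and transcripts of its host gene and no other gene of the annotation, and no tag of theirs lay in another detected piRNA.

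The letters of box D (CTGA) stood at the same distance from the 3′ end in each fragment. Exactly 2 nt followed them in 3 of 3, in 5 of the 8 other detected piRNAs within snoRNAs, and in 1 of the 79 detected piRNAs without a snoRNA match. On the opposite strand these counts were 0, 0 and 0. A further CTGA lay just before each fragment in the snoRNA: 2 nt separated it from the first base of mmu_piR_025007 and of mmu_piR_012107, and 0 nt from that of mmu_piR_034793. The same layout was found in mmu_piR_022877 of Snord2, which started 1 nt after a CTGA and ended 2 nt after another. For mmu_piR_030130 of Snord17 the distance was 117 nt. The remaining detected piRNAs within snoRNAs had no CTGA before them. However, mmu_piR_000705, mmu_piR_004086 and mmu_piR_015668 start at position 1 of the snoRNA and mmu_piR_000267 at position 4, which leaves no room for one. Only mmu_piR_032974, from position 42, and mmu_piR_035888, from position 113, could have had a CTGA before them. The letters of box C (TGATGA) stood once near the 5′ end of all 3 snoRNAs, outside the fragments. A second copy was found only in mmu_piR_034793, at positions 49 to 54 of its snoRNA. Anywhere in the sequence, CTGA was found in 79.5% of 1507 annotated snoRNA transcripts and TGATGA in 26.1%. On the opposite strand the shares were 56.1% and 1.39%. Among the 62 transcripts of 72 to 76 nt, the size of the 3 host snoRNAs, 91.9% held CTGA and 69.4% held TGATGA. For these the opposite strand gave 40.3% and 0%, so most snoRNAs of this size carry both. Of the 25 other detected piRNAs of 27 or 28 nt, 4 held CTGA and 1 held TGATGA. On their opposite strand 3 and 0 did. Such matches of short letters describe the sequence and do not show a working box.

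**Figure D1:**
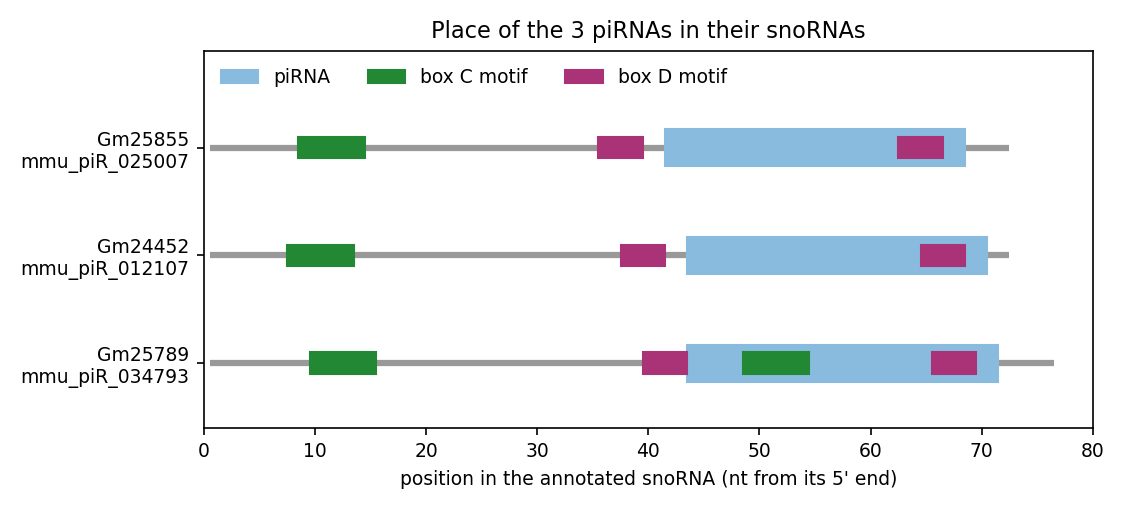
Place of each fragment (blue) in its annotated snoRNA (grey line), with position in nt from the 5′ end of the snoRNA on the horizontal axis. Green marks the box C letters and purple the box D letters; each fragment starts 0 to 2 nt after a box D motif and ends 2 nt after the next one.

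Apart from this place, the fragments were unlike in sequence. The longest run shared by 2 of them was 4 nt for the Snhg1 pair and 5 nt for either of these with the Gas5 fragment. Their G and C content was 40.7% for mmu_piR_025007, 33.3% for mmu_piR_012107 and 28.6% for mmu_piR_034793. All 3 began with T (U in the RNA), as did 44 of the 87 other detected piRNAs (50.6%) but only 2 of the 8 within other snoRNAs. None had A at base 10, a feature of secondary piRNAs from the ping-pong cycle. That base was G in all 3, against 26 of the 87 others (29.9%).

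The Snhg1 fragments lay close together in the genome. Coordinates are those of a match to GENCODE M21 (GRCm38), counted from 1. mmu_piR_025007 stood at chr19:8724034-8724060 and mmu_piR_012107 at chr19:8724574-8724600, both on the plus strand. Snhg1 spans 8723475 to 8726443 and holds 8 annotated snoRNA genes, of which these are number 1 and number 3 from the 5′ end. mmu_piR_034793 stood at chr1:161038351-161038378, also on the plus strand, in the last of 10 snoRNA entries inside Gas5 (161034422 to 161038539), among which Snord80 is listed as 2 overlapping entries. The other 6 entries of Snhg1 and 9 of Gas5 had 0 tags in either library. Since only reads assigned to the piRNA collection were listed, this does not show that those snoRNAs gave no fragments.

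Where annotated host transcripts span a fragment, some hold it in an exon and others within an intron, and the balance differed by fragment. Of the 18 transcripts of Snhg1, 3 hold mmu_piR_025007 in an exon, 2 of them annotated as retained introns and 1 as a long noncoding RNA, and 1 more carries it within an intron. For mmu_piR_012107 the number was 6, all retained introns, and a further 6 carry it within an intron. Of the 25 Gas5 transcripts, 3 hold mmu_piR_034793 in an exon, all retained introns, and 14 within an intron. The remaining transcripts do not span the fragments.

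The upstream Snhg1 fragment was the most abundant of the 3 in both libraries. There were 244066 piRNA reads in all for the control and 359871 for MC-LR, so that 1 read is worth 4.10 and 2.78 counts per 1000000 piRNA reads (CPM). With 1 library per group there is no replicate check and no test of the conditions. The 95% intervals given with each value cover counting error only, and amplified reads were not tied to single molecules. They compare 2 libraries, not the conditions. The sources used here do not say whether a library came from 1 culture or from pooled wells. The tables list piRNA reads alone, so the spermatogonial label was not checked against marker genes.

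mmu_piR_025007 had 4544 control and 5153 MC-LR reads, or 18618 and 14319 CPM. mmu_piR_034793 of Gas5 followed with 1542 and 1826 reads, or 6318 and 5074 CPM. mmu_piR_012107 had 1097 and 1127 reads, or 4495 and 3132 CPM. In both libraries they held ranks 3, 7 and 8 among all piRNAs. Their joint share of piRNA reads was 2.94% without the toxin (2.88 to 3.01) and 2.25% with it (2.20 to 2.30). Among reads that fell on a piRNA within a snoRNA, of which there were 10810 and 12104, their share was 66.4% (65.5 to 67.3) and 67.0% (66.1 to 67.8). Thus about the same part of the snoRNA reads came from these 3 fragments with and without MC-LR. Of the 3627 and 3998 other snoRNA reads, mmu_piR_004086 of Snord57 alone held 3329 and 3610. The shares therefore set the 3 fragments mainly against that 1 fragment.

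The order of the fragments was the same in both libraries, and of the 3 pairs the balance shifted most for mmu_piR_012107 against the Gas5 fragment. Ratios between fragments do not depend on how a library is scaled. The Snhg1 fragments have 27 nt each, so their ratio is also one per length. mmu_piR_025007 had 4.14 times the reads of mmu_piR_012107 in the control (3.88 to 4.43) and 4.57 times in the MC-LR library (4.29 to 4.88). The change between the libraries was 1.10 (1.01 to 1.21). Over full-length tags alone it was 1.05 (0.951 to 1.15), and over tags with at least 10 reads 1.09 (0.997 to 1.20). Both of these intervals include 1. So a shift of the Snhg1 pair beyond counting error was seen only with all listed tags counted.

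Against the 28-nt fragment of Gas5, mmu_piR_025007 had 2.95 times the reads in the control (2.78 to 3.12) and 2.82 times in the MC-LR library (2.67 to 2.98). Per length these ratios were 3.06 and 2.93. The change was 0.958 (0.885 to 1.04), an interval that includes 1. mmu_piR_012107 had 0.711 times the reads of the Gas5 fragment in the control (0.658 to 0.769) and 0.617 times in the MC-LR library (0.573 to 0.665), or 0.738 and 0.640 per length. Here the change was 0.868 (0.779 to 0.966), and over full-length tags 0.887 (0.794 to 0.992). Both intervals exclude 1. The sum of the Snhg1 pair over Gas5 was 3.66 (3.46 to 3.87) and 3.44 (3.26 to 3.63), a change of 0.940 (0.871 to 1.02). The 3 pairs share reads, so their changes are not independent, and no p-value was formed from them.

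**Figure D2:**
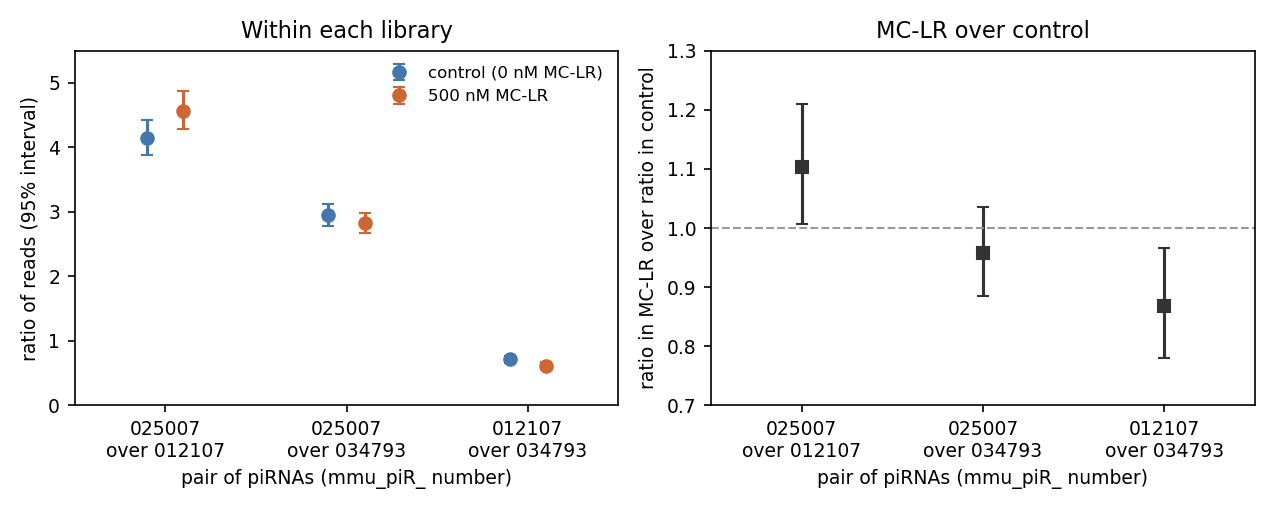
Ratio of reads between fragments in each library (left, vertical axis) and the ratio in the MC-LR library over that in the control (right). Bars are 95% intervals of counting error, with 1 library per group; on the right, the interval of the second pair includes the dashed line at 1 and those of the other 2 do not.

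As shares of all piRNA reads, the 3 fragments were lower in the MC-LR library, by less than the fold of 2 set for a call. The CPM ratio, MC-LR over control, was 0.769 (0.739 to 0.801) for mmu_piR_025007, 0.697 (0.641 to 0.758) for mmu_piR_012107 and 0.803 (0.750 to 0.860) for mmu_piR_034793. A piRNA was called higher or lower when a library had 10 reads or more of it, with a ratio of at least 2 or at most 0.5, and an interval that excludes 1. By this rule 0 of the 3 members were called, against 25.6% of the 43 piRNAs with enough reads (6.98% higher and 18.6% lower). The median log2 ratio was -0.38 for the members and -0.40 for all tested piRNAs, so the fragments stood near the middle of the profile.

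That direction depended on the scaling. The most abundant piRNA, a fragment of 5S ribosomal RNA, took most reads of both libraries. With the reads outside this 5S fragment as the total, the ratios were 1.10 (1.06 to 1.15), 1.0 (0.920 to 1.09) and 1.15 (1.08 to 1.24), in the order mmu_piR_025007, mmu_piR_012107, mmu_piR_034793. This scaling moved every log2 ratio up by 0.52 and turned the counts of 3 higher and 8 lower piRNAs to 5 and 2. Scaled to the other piRNAs within snoRNAs, the ratios were 1.03 (0.988 to 1.07), 0.932 (0.857 to 1.01) and 1.07 (1.003 to 1.15). Most reads of that total came from the Snord57 fragment. mmu_piR_012107 had the lowest ratio of the 3 under each scaling, which the ratios between fragments above already fix.

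The other piRNAs within snoRNAs spread more widely. Apart from the 3 members, 8 detected piRNAs matched a snoRNA transcript in sense, 4 nearer its 5′ end and 4 nearer its 3′ end by their midpoint. Of these, 7 had at least 10 reads in a library: 2 were called higher and 1 lower, with a median log2 ratio of -0.18. The fragment of Snord57, which lies within the ribosome biogenesis gene Nop56, was the only one with counts like those of the members, 3329 and 3610 reads. Its CPM ratio was 0.735 (0.701 to 0.771), within the range of the members. The called ones had few reads: mmu_piR_000705 of Snord15a had 23 and 69, mmu_piR_035888 had 2 and 15, and mmu_piR_030130 of Snord17 had 55 and 36. mmu_piR_035888 also matches the Mir3068 hairpin. The members together had 1.98 times the reads of the 8 others in the control (1.90 to 2.06) and 2.03 times in the MC-LR library (1.95 to 2.11), a change of 1.02 (0.969 to 1.08). Most reads of those 8 came from the Snord57 fragment, so this is mainly a comparison with it.

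**Figure D3:**
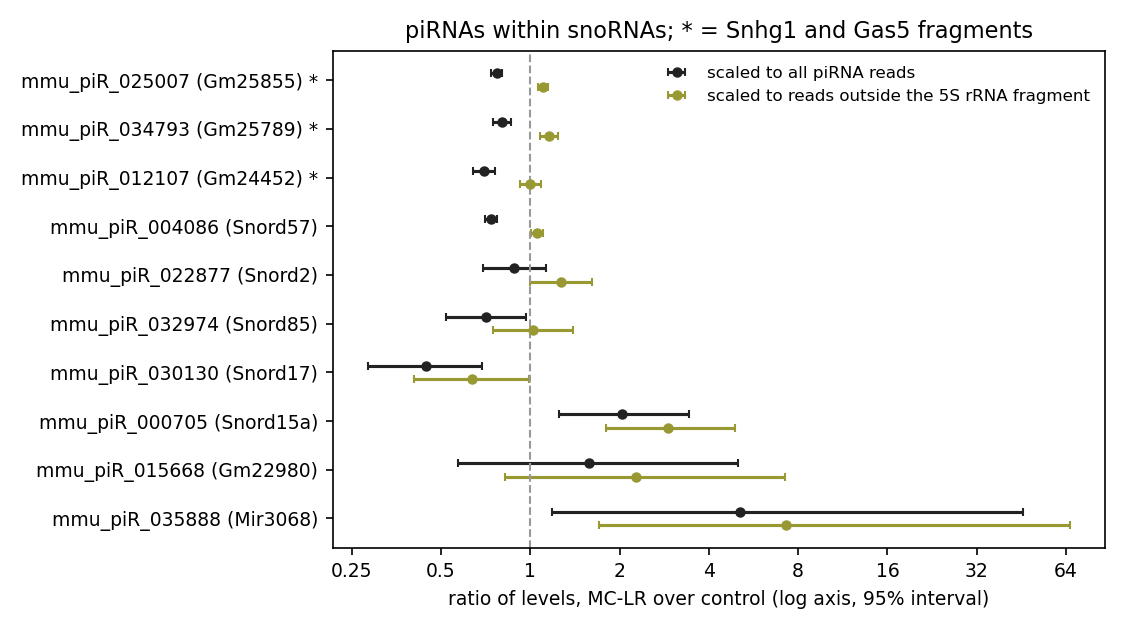
Ratio of levels, MC-LR over control, on a log axis for the 10 piRNAs within snoRNAs with at least 10 reads in a library; bars are 95% intervals of counting error. Black points are scaled to all piRNA reads and olive points leave the 5S fragment out of the total; the 3 Snhg1 and Gas5 fragments (asterisks) lie between 0.697 and 0.803 on the first scale and between 1.0 and 1.15 on the second.

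Most reads of the 3 fragments, 88.8% to 96.1% in each library, had the exact annotated ends. The files list distinct sequences (tags) that lie within the annotated piRNA and are up to 3 nt shorter, so longer forms were not measured. The tags shown are the full-length one of each fragment and its main shortened form, with CTGA in capitals, because the fragments differ in which end was shortened.
mmu_piR_025007, full length: tatctgtgaggataagtaactCTGAgg
mmu_piR_025007, 1 nt shorter at the 5′ end: atctgtgaggataagtaactCTGAgg
mmu_piR_012107, full length: tgcaatgatgtcatcttactaCTGAaa
mmu_piR_012107, 1 nt shorter at the 3′ end: tgcaatgatgtcatcttactaCTGAa
mmu_piR_034793, full length: ttacttgatgatagtaaaagatCTGAtg
mmu_piR_034793, 1 nt shorter at the 5′ end: tacttgatgatagtaaaagatCTGAtg
The full-length tag led in every case. For mmu_piR_025007 it made up 95.1% of reads without the toxin (94.4 to 95.7) and 93.0% with it (92.3 to 93.7). For mmu_piR_012107 the shares were 88.8% (86.8 to 90.6) and 91.6% (89.8 to 93.1), and for mmu_piR_034793 they were 95.3% (94.1 to 96.3) and 96.1% (95.1 to 96.9). Among the other tested piRNAs the median share of full-length reads was 15.8% over the 40 with control reads and 22.1% over the 39 with MC-LR reads. Of these, 6 and 2 were above 90%. No minimum of reads in the library itself was set here, so some of these shares rest on few reads. For mmu_piR_035888, 100% of its 2 control reads were full length. Within other snoRNAs with at least 10 reads in both libraries the shares spread widely. They were 96.4% and 91.7% for the Snord17 fragment, 83.7% and 85.0% for that of Snord2, 71.8% and 62.9% for that of Snord85, and 69.6% and 50.7% for that of Snord15a. The Snord57 fragment had 0.571% and 0.886% full-length reads, although 98.6% and 98.9% of its reads kept the annotated 3′ end. High full-length shares were thus also found outside Snhg1 and Gas5.

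The upstream Snhg1 fragment varied mainly at its 5′ end. Its tag without the first base had 190 control and 308 MC-LR reads, or 4.18% (3.62 to 4.80) and 5.98% (5.35 to 6.66) of its reads. The difference, MC-LR minus control, was 1.80 points (0.921 to 2.67). This tag begins with A, so T came first in 95.8% of control reads and 93.9% after exposure. The tag without the first 2 bases went the other way, with 15 and 3 reads. At the 3′ end, the tag without the last base had 14 and 39 reads, or 0.308% (0.169 to 0.516) and 0.757% (0.539 to 1.03). Reads shortened only at the 5′ end outnumbered those shortened only at the 3′ end 12.1 times in the control (7.39 to 21.2) and 7.0 times in the MC-LR library (5.11 to 9.79). The change of that balance was 0.578, with an interval that includes 1 (0.322 to 1.04).

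The downstream Snhg1 fragment varied at its 3′ end instead. Its tag without the last base had 96 control and 75 MC-LR reads, or 8.75% (7.15 to 10.6) and 6.65% (5.27 to 8.27). The difference of -2.10 points has an interval that includes 0 (-4.34 to 0.124). Over all its tags, 90.6% of control and 92.9% of MC-LR reads kept the annotated 3′ end. This difference of 2.29 points has an interval that just excludes 0 (0.002 to 4.60). Reads shortened only at the 5′ end were 0.194 times those shortened only at the 3′ end in the control (0.114 to 0.316) and 0.188 times in the MC-LR library (0.100 to 0.328). The share shortened only at the 3′ end was thus 9.02 points above that of mmu_piR_025007 in the control (7.41 to 10.9) and 6.23 points above it in the MC-LR library (4.84 to 7.89). This contrast within 1 host gene was larger than any change of these end shares between the libraries. A tag without the first 2 bases had 7 control reads and 0 MC-LR reads, where the exact 95% interval of a count of 0 reaches 0.327% and the floor of 3 reads stands at 0.266%.

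The Gas5 fragment again varied at the 5′ end. Its tag without the first base had 44 and 38 reads, or 2.85% (2.08 to 3.81) and 2.08% (1.48 to 2.85). That tag still begins with T, and T led 99.1% and 98.8% of the fragment's reads. The tag without the first 2 bases had 14 and 22 reads, and the tag without the last base 15 and 10. Shortening at the 5′ end alone outnumbered shortening at the 3′ end alone 3.87 times in the control (2.16 to 7.35) and 5.0 times in the MC-LR library (2.66 to 10.2). For none of its single tags did the interval of the difference between the libraries exclude 0. Tags 1 nt shorter at either end together made up 3.83% of control and 2.63% of MC-LR reads. Their difference of -1.20 points has an interval that just excludes 0 (-2.45 to -0.004).

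The full-length share of mmu_piR_025007 was lower after exposure by more than counting error. MC-LR minus control was -2.06 points for mmu_piR_025007 (-3.00 to -1.11) and 2.78 points for mmu_piR_012107 (0.308 to 5.28). Over tags with at least 10 reads the latter was 2.04 points, with an interval that includes 0 (-0.315 to 4.41). For mmu_piR_034793 it was 0.791 points, with an interval that includes 0 (-0.585 to 2.21). In the control, the full-length share of mmu_piR_012107 minus that of mmu_piR_025007 was -6.28 points (-8.37 to -4.43). After exposure it was -1.44 points, with an interval that includes 0 (-3.33 to 0.210). The mean tag length moved by little: 26.95 and 26.93 nt for mmu_piR_025007, 26.86 and 26.90 nt for mmu_piR_012107, and 27.94 and 27.95 nt for mmu_piR_034793. With 1 library per group, whether these differences of end shares exceed the spread between cultures was not tested.

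**Figure D4:**
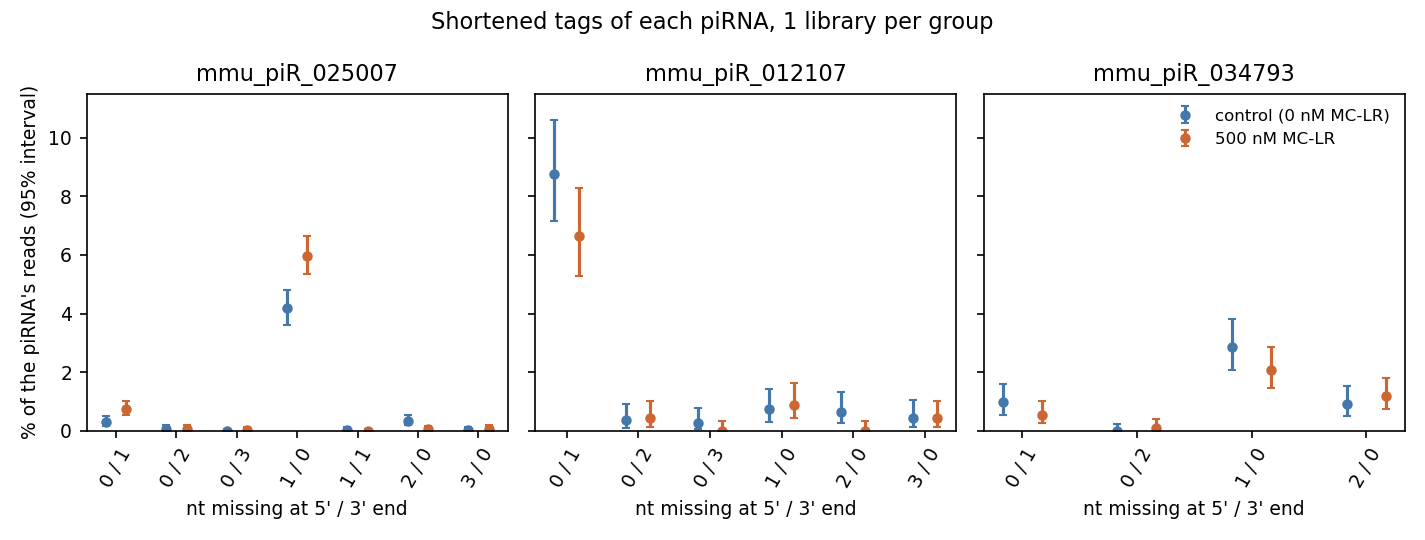
Shortened tags as a percent of the reads of each fragment (vertical axis), by nt missing at the 5′ and 3′ end (horizontal axis), in the control (blue) and the MC-LR library (orange); bars are 95% exact intervals. The leading shortened tag lacks the first base in mmu_piR_025007 (4.18% and 5.98%) and mmu_piR_034793 (2.85% and 2.08%), and the last base in mmu_piR_012107 (8.75% and 6.65%).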

How the data were processed

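Small RNA of GC-1 cells was sequenced in 1 control and 1 MC-LR library. TRIzol extraction and the sequencer maker's standard library preparation are described, per the labels' protocols. The authors deposited whole-number counts of reads per annotated piRNA and per tag, taken as not normalised. The submitters' processing notes name the genome build mm8. How reads were trimmed and aligned, with which mismatches and to which collection, is not given in the sources used here. Tag counts summed to the piRNA counts with 0 disagreements, and 0 tags lay outside their piRNA.

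The members, lists and rules were chosen with earlier results of these data known. Named are the members, their tags, and piRNAs with at least 10 reads that match a snoRNA transcript exactly in sense; tags with fewer reads are given beside them. Intervals (95%) are exact Clopper-Pearson for shares and ratios within a library, Newcombe for differences and log-odds (Wald) for changes of ratios. Transcripts were those of GENCODE M21, a build other than the authors'. The fold rule was tested on simulated data in which the most abundant piRNA was held unchanged. That simulation therefore does not cover the dependence of the calls on the scaling. Software was Python 3.11.15, scipy 1.17.1 and pandas 2.3.3, with edgeR 4.0.16 TMM factors and DESeq2 1.42.0 size factors in R 4.3.3 as alternatives; no count test was run, since each group has 1 library.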

Additional observations from a re-analysis of the deposited data

How the results depend on the processing

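No paired analysis was possible because there is a single library for each dose. The CPM ratios of mmu_piR_025007, mmu_piR_012107 and mmu_piR_034793 (0.769, 0.697 and 0.803) became 1.01, 0.917 and 1.06 with TMM factors, 1.0, 0.906 and 1.04 with DESeq2 size factors, 1.10, 1.0 and 1.15 without the most abundant piRNA, and 1.23, 1.12 and 1.29 without the 10 most abundant. They became 1.03, 0.932 and 1.07 against the other snoRNA piRNAs, a scaling chosen after seeing the data, as was the division by length. Values above 1 are reversed in direction, as is that of mmu_piR_012107 without the most abundant piRNA, which lies just above 1. The DESeq2 factor is a median of ratios and mmu_piR_025007 has that median, so its 1.0 is fixed. The scale factor alone moves them: it shifted all log2 ratios by 0.38 to 0.68. The count of 3 higher piRNAs became 5 under the first 4 scalings. The count of 8 lower ones became 3 with TMM or DESeq2 factors, 2 with either reduced total, and 5 with at least 50 reads, where fewer piRNAs can pass.

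The ratio of mmu_piR_025007 to mmu_piR_012107 in the control, 4.14, was 4.44 over full-length tags, which are also the leading tags. The other ratios between fragments and their changes stayed within their intervals under each alternative. Counting each distinct tag once, with 4 to 7 tags a library, gave differences of full-length share of 0, 5.71 and -5.0 points for mmu_piR_025007, mmu_piR_012107 and mmu_piR_034793. For the 5′ end they were 14.3 (reversed), 2.86 and 10.0 points, and for the 3′ end 0 points for mmu_piR_025007 and -15.0 for mmu_piR_034793. Each of these intervals includes 0. Over tags with at least 10 reads no difference left its interval, but for mmu_piR_012107 those of the full-length share, 2.04 points (-0.315 to 4.41), and of the 3′ end, 2.19 points (-0.057 to 4.47), then had intervals that include 0. Depth limits the rarest tags, where the exact interval of 0 control reads reaches 0.0811% for mmu_piR_025007 and the floor of 3 reads stands at 0.066%.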
